A study of Mus musculus with 82 samples.

Results

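The laser-captured plasma cells of 46 or 49 days after pristane were compared with those of day 33. They came from 2 independent cohorts, study 1 and study 2, and were chosen by label: captured arrays of days 33 and 46 in study 1 and of days 33 and 49 in study 2. These were 22 of the 82 arrays of the series, and 21 were used after 1 array of day 49 with a compressed range was left out. Arrays that share a specimen number were averaged, which gave 12 specimens, 3 for each day of each study. All mice were BALB/c.iMycEμ, which carry a Myc transgene in the immunoglobulin heavy chain locus, so controls without the transgene or without pristane did not enter. They were at least 8 weeks old and had received 0.5 ml of pristane oil into the peritoneum. Plasma cells were recognised in frozen sections of the oil granulomata by methyl green pyronin, a stain of RNA-rich cytoplasm, and their RNA was amplified in repeated linear rounds before hybridization. Nothing in the sources used here says whether each specimen number is 1 mouse, so p-values measure the spread between these specimens.

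Plasma cells are the antibody-secreting end stage of the B cell lineage. The transcription factors Irf4, Prdm1 and Xbp1 establish their secretory state, and the surface proteins Sdc1, Slamf7 and Tnfrsf17 mark them and receive survival signals. In BALB/c mice, pristane granulomata supply macrophages, neutrophils and interleukin-6 around which plasma cell tumors arise, and a deregulated Myc gene accelerates them.

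The labelled cell type was checked against its markers. Of 10 defining plasma cell markers, Mzb1 was not named on the array, 8 were above the array median in all 12 specimens, and Tnfrsf17 was above it in 7. Jchain, the joining chain of polymeric antibodies, lay between log2 12.71 and 13.26, and Sdc1, the surface proteoglycan of plasma cells, between 9.01 and 10.12. Markers of other cells were present too. The macrophage genes Csf1r (10.95 to 12.34) and Lyz2 (11.39 to 13.02) and the fibroblast genes Col3a1 (12.55 to 13.47) and Dcn (11.74 to 13.01) were above the array median in all 12 specimens. The T cell gene Cd3g, the acinar genes Cpa1, Cpb1 and Ctrb1 and the adipocyte gene Cidec were above it in none. Other markers of these cells were above it in some specimens. The acinar Cela1 was in 11 (4.93 to 8.18) and Prss2 in 3. The T cell genes Cd3e and Cd3d were in 6 and 2, and the adipocyte gene Adipoq in 3. In bulk samples of this kind, fewer cells of a type and less RNA per cell cannot be told apart.

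Arrays of 1 specimen correlated at 0.959 to 0.994 (9 pairs), and arrays of different studies at 0.878 to 0.955. Specimen 14 of day 33 of study 1 stood apart, with correlations of 0.961 to 0.977 between its average and those of its study, and specimen 2 of day 49 of study 2 rests on 1 array. Xist, the noncoding RNA of the inactive X chromosome, was at 10.48 or higher in 10 specimens and at 4.55 and 4.82 in the second specimen of day 46 and the third, counted in the order of their label numbers, as are all values of that day. The same 2 specimens held the Y-linked transcript Eif2s3y at 8.72 and 8.19, against 3.15 or lower elsewhere, so that sex-linked transcripts moved with the day in study 1. The date-like numbers in the titles of study 1 moved with the day too: of 7, only 1 held arrays of both days. Within it the median difference of all tested genes was −0.02 (1 array each), against 0.13 in study 1. The labels do not explain these numbers, and in study 1 they can hardly be told apart from the day. Signal near the 3-prime end of control transcripts exceeded that near the 5-prime end by 4.43 ± 0.63 log2 units at day 33 and 4.07 ± 0.90 at day 46, and by 4.51 ± 0.30 at day 33 and 3.93 ± 0.15 at day 49 (SD, n = 3 each). The specimens of days 33 and 49 did not overlap. The mean difference between days was −0.47 (exact permutation test within study, two-sided, p = 0.165, smallest possible p 0.005). The 2 arrays of specimen 14 lay far apart in this measure, at 3.85 and 5.73. The second was the highest of all arrays used and had the lowest 99th percentile, 11.73. The part of RNA quality in the values of specimen 14 was not tested.

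The comparison of days 46 and 49 with day 33 asks which transcripts of the captured cells change as the granulomata age between early and later stages. The limma fit over 7739 genes called 0 (0%) at an adjusted p under 0.05, with 0.999 the smallest value. At an unadjusted p under 0.05 there were 201 (2.6%): 168 higher (2.17%) and 33 lower (0.426%). That number was 122 without the second specimen of day 46, 133 without the third and 361 without specimen 3 of day 49. A log2 difference of 1 is a 2-fold difference, and the 95% interval of the difference lay within 2-fold for 7480 genes (96.7%) and within 1.5-fold for 5049 (65.2%). The mean difference was 2-fold or more for 10 genes. The gene differences of the studies did not run together: 3150 genes (40.7%) had the same sign in both, and across genes, which are not independent, Pearson's r was −0.18.

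The genes that carry the identity of plasma cells were measured by 1 chosen probe set each, and none was past the threshold. Xbp1, which drives expansion of the secretory apparatus, was at 12.09, 11.70 and 12.09 at day 33 and 12.09, 12.02 and 12.17 at day 46 of study 1. In study 2 it was at 12.56, 12.98 and 12.90 at day 33 and 12.74, 12.66 and 12.92 at day 49. The days overlapped in both studies, and the difference was 0.05 (95% interval −0.24 to 0.33). Jchain differed by 0.06 (−0.20 to 0.32) and Sdc1 by −0.10 (−0.48 to 0.27), intervals that lie within 2-fold. Other probe sets gave wider values: 1 of Xbp1, with a mean of 11.38, differed by 0.82 in study 1 and −0.16 in study 2 (0.33 over both), and 1 of Sdc1, with a mean of 8.42, by 0.90 and −0.43 (0.23 over both).

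The intervals were wider for the other regulators. Irf4, needed for plasma cell formation and survival, differed by 0.08 (−0.58 to 0.74), and Prdm1, the repressor of the B cell program, by −0.25 (−0.80 to 0.30). Irf4 was lowest in specimen 14 of day 33 (8.53) and in specimen 2 of day 49 (8.37), and lay between 9.23 and 10.48 in the other specimens. Slamf7, an adhesion receptor of plasma cells, differed by 0.07 (−0.42 to 0.56) and Tnfrsf17, the receptor for the survival ligands BAFF and APRIL, by −0.18 (−0.70 to 0.35). Of 15 tested plasma cell genes, 0 had an unadjusted p under 0.05 in the limma fit, against 2.6% of all genes, and the median difference was 0.07, against 0.04 over all genes. Cd93, which plasma cells need to persist in bone marrow, had the smallest p (difference 0.55, −0.14 to 1.23).

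**Figure D1:**
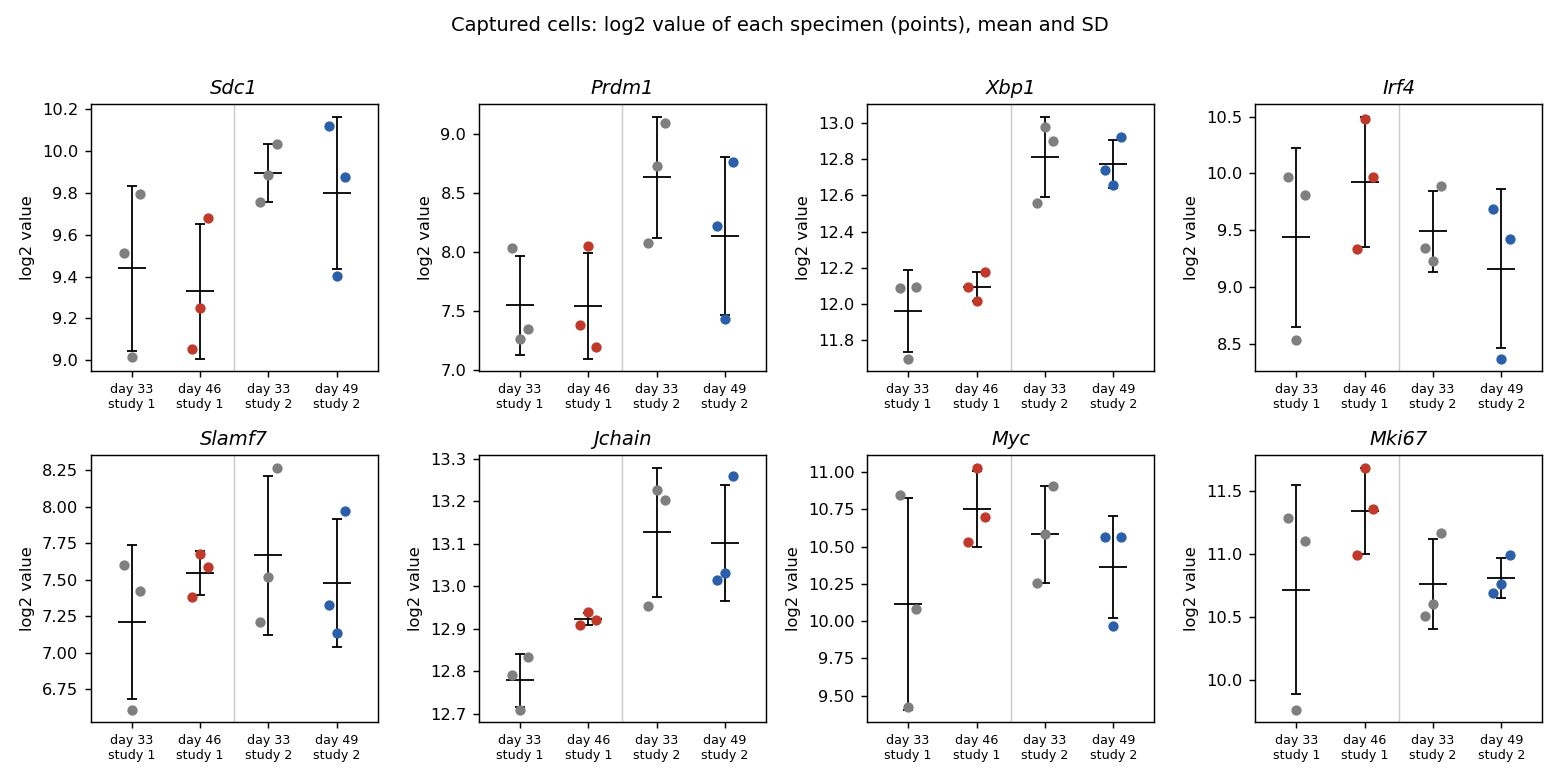
Log2 values of 6 plasma cell genes, Myc and Mki67 in each specimen of captured cells (points), with mean and SD (n = 3), for days 33 and 46 of study 1 and days 33 and 49 of study 2. Day groups overlap in all panels except Jchain in study 1, where all 3 specimens of day 46 lie above those of day 33.

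Cd163 gave the lowest p of the whole comparison. It encodes the haemoglobin scavenger receptor of macrophages. In study 1 it was at 6.91, 6.41 and 6.70 at day 33 and at 4.12, 4.05 and 4.06 at day 46, with no overlap and all 3 specimens of day 46 lay below the array median. Study 2 gave 6.95, 7.35 and 6.01 at day 33 and at 6.07, 6.67 and 5.19 at day 49, where the days overlapped. The difference was −1.70 over both studies (SE 0.34, 95% interval −2.43 to −0.96, limma adjusted p = 0.999), −2.60 in study 1 (limma adjusted p = 0.0507) and −0.80 in study 2 (limma adjusted p = 0.998).

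The call on Cd163 depended on the fit. With all captured groups of the series and a mean per group, its adjusted p in limma was 0.00695, and it was the 1 gene past the threshold. That fit differs from the one of study and day both in its groups and in its terms. The part of each was not tested. Over 25 alternative settings its difference ran from −1.97 to −1.38. Single arrays spread widely within a specimen: the arrays of specimen 14 gave 5.30 and 7.52, and those of specimen 1 of day 33 in study 2 gave 5.78 and 8.13. All 5 arrays of day 46 lay between 3.90 and 4.22. Within the 1 date-like title number that held arrays of both days, the day 46 array was 1.10 lower: 4.20 against 5.30, 1 array each. Leaving out the 2 day 46 specimens with low Xist gave −1.38.

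Macrophage genes as a list lay near the median of all genes. Of 24 tested, Cd163 included, 15 were above 0 and 9 below, and the median difference was 0.05 (0.23 without specimen 14, −0.03 without specimen 2 of day 49). Cd163 was the 1 member with an unadjusted p under 0.05, against 2.6% of all genes (0.426% lower). The F4/80 gene Adgre1 differed by 0.16, the growth factor receptor gene Csf1r by 0.09, the mannose receptor gene Mrc1 by −0.15 and the chitinase-like Chil3 by −0.78 (95% interval −1.64 to 0.08). The mean level of the 26 macrophage genes ran from 7.65 to 8.90 at day 33 and from 7.80 to 8.26 at day 46 in study 1, and from 7.90 to 9.39 at day 33 and 8.05 to 8.99 at day 49 in study 2. Retnla and Itgam were not above the array median in enough specimens to be tested. The part of macrophage RNA in the Cd163 difference was not tested.

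Cd163 over the full course lay at 6.76, 6.29 and 6.68 at days 7, 17 and 33 of study 1, then at 4.08 at day 46 and 3.77 at day 104. In captured cells of study 2 the group means were 7.47, 7.44, 6.77, 5.98 and 3.72 at days 7, 17, 33, 49 and 105. In whole granuloma of study 2 Cd163 was at 8.21 ± 0.57 at day 33 and 8.41 ± 0.49 at day 49 (SD, n = 3). The captured change minus the granuloma change was −0.99 (SE 0.60, limma adjusted p = 0.471). These day steps share their samples and are given side by side.

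**Figure D2:**
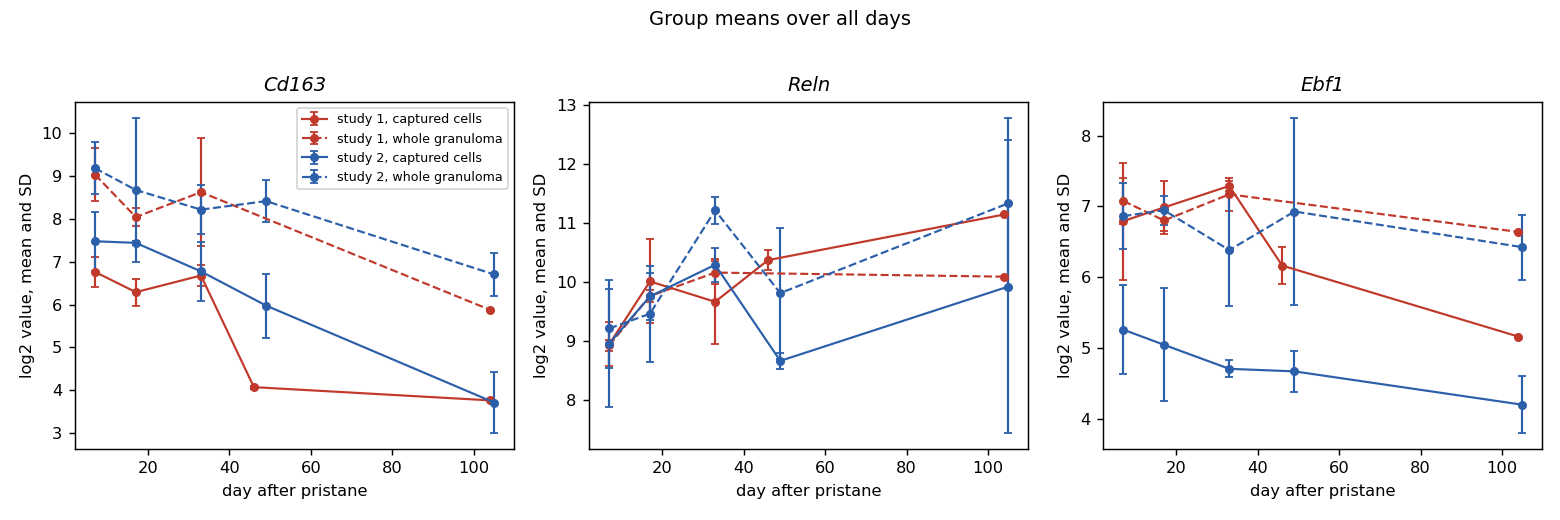
Group mean log2 values (± SD over specimens, no bar where there was 1 specimen) of Cd163, Reln and Ebf1 by day after pristane in captured cells (solid lines) and whole granuloma (dashed lines) of study 1 (red) and study 2 (blue). Cd163 in captured cells of study 1 is at 6.68 at day 33 and 4.08 at day 46, and in study 2 at 6.77 at day 33 and 5.98 at day 49.

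The other genes with the smallest p and the same sign in both studies differed by about 0.4 to 0.6 log2 units, and none was past the threshold. Fbxo8, an F-box protein of ubiquitin ligase complexes, was at 5.91, 5.57 and 5.60 at day 33 and 6.35, 6.47 and 6.21 at day 46. Study 2 gave 6.41, 6.75 and 6.44 at day 33 and 6.95, 6.92 and 6.87 at day 49. The later day was higher with no overlap in both studies (difference 0.52, 95% interval 0.23 to 0.80). In whole granuloma of study 2 its difference was −0.41. Within the 1 title number that held arrays of both days, 1 array each, Fbxo8 differed by 0.075, Rhbdf1 by −0.08, Nit2 by 0.04 and Scoc by 0.002, against 0.51 to 0.75 in study 1 as a whole. Rhbdf1, an inactive rhomboid protein that guides the sheddase ADAM17 through the secretory pathway, was also higher with no overlap in both studies (0.43, 0.16 to 0.69). The omega-amidase Nit2 (0.52), the Golgi protein Scoc (0.52) and the Cdc42 effector Cdc42ep3 (0.50) were higher with no overlap in study 1. Other probe sets of Scoc (−0.16) and Cdc42ep3 (0.15) gave smaller or opposite differences.

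Below day 33 lay Gtf3c6, a subunit of a general factor of RNA polymerase III (−0.56), Pdap1, a growth factor-associated phosphoprotein (−0.48), and the tubulin carboxypeptidase Agtpbp1 (−0.41). Pdap1 was lower with no overlap in both studies, at 9.48, 9.67 and 8.99 against 9.85 to 10.06 in study 1 and at 9.22, 8.69 and 9.35 against 9.37 to 9.63 in study 2. Another probe set of Pdap1, at about the same level, differed by 0.22 in the other direction. Ebf1, the early B cell factor, was at 7.36, 7.30 and 7.21 at day 33 and 6.47, 6.03 and 5.99 at day 46. Study 2 gave 4.59 to 4.83 at day 33 and 4.34 to 4.88 at day 49. The difference was −1.13 in study 1. All study 2 values lay below the array median, so that its difference of −0.04 there is no measure of change, and the other Ebf1 probe sets differed by −0.04 and 0.43 over both studies.

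**Figure D3:**
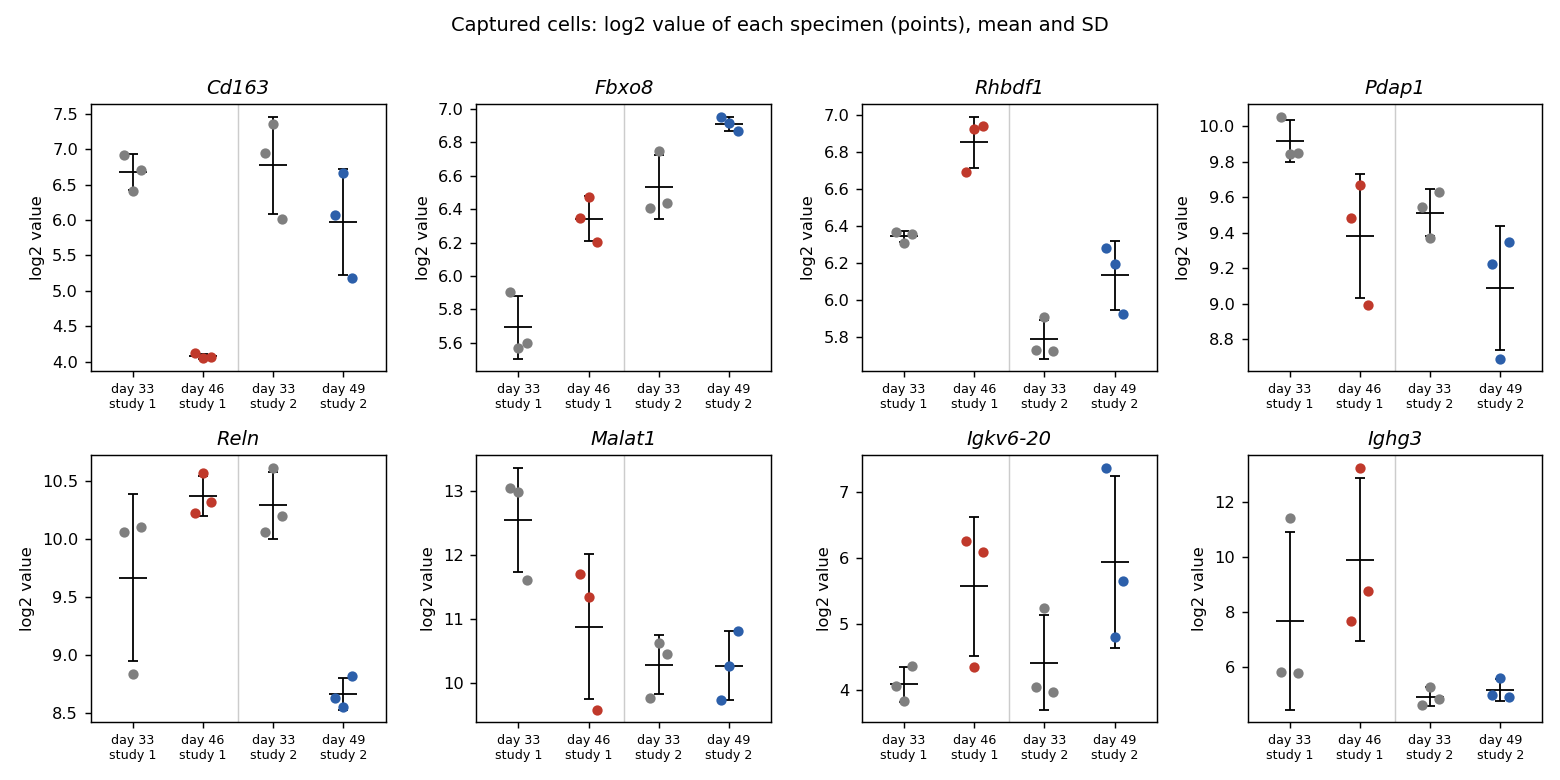
Log2 values of 8 genes in each specimen of captured cells (points), with mean and SD (n = 3). Cd163 separates the days in study 1 and overlaps in study 2, Fbxo8, Rhbdf1 and Pdap1 separate the days in both, and Reln lies higher at day 46 and lower at day 49.

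In study 1 the specimens of the days did not overlap in 890 genes that were higher (11.5%) and 285 that were lower (3.68%), and in study 2 in 153 (1.98%) and 227 (2.93%). In both studies at once this held for 11 higher (0.142%) and 4 lower genes (0.0517%). Besides Fbxo8 and Rhbdf1, the 11 held the tetraspanin Tspan8 (0.78, 95% interval 0.26 to 1.31), Copa of the coat of Golgi transport vesicles (0.50, 0.13 to 0.86) and Ints4 of the Integrator complex (0.50). They also held the endothelial adhesion receptor Adgrl4 (0.52), the acyl-CoA dehydrogenase Acadsb (0.35), the histone acetyltransferase Kat7 (0.34), the splicing-related Sugp2 (0.30), the electron carrier Cyb5a (0.29) and the zinc finger gene Repin1 (0.28). Dimmer probe sets went the other way for Kat7 (−0.24), Sugp2 (−0.05) and Repin1 (−0.18), while others of Sugp2 (0.07) and Repin1 (0.14) did not. Besides Pdap1, the lower genes were the homeobox gene Hoxc6 (−0.27), the urea transporter Slc14a2 (−0.40) and Utf1 (−0.17). Copa was at 9.27 to 10.27 at day 33 and 10.38 to 10.63 at day 46, and at 9.92 to 9.99 and 10.11 to 10.33 in study 2. The chosen probe set of Tspan8 had a mean of 5.00, below the array median of each specimen (5.05 or higher). Its other probe sets differed by −0.13, −0.03 and −0.06. These genes were named after their values were seen, because the days separated, so their intervals are no independent support.

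Immunoglobulin transcripts spread differently between specimens. Igha, the constant region of IgA, was between 13.79 and 14.70 in all 12 specimens and differed by 0.16 (95% interval −0.18 to 0.49). Ighm, of IgM, ran from 9.37 to 14.71, both extremes at day 33 of study 2, and differed by 0.33 (−1.18 to 1.84). The chosen Ighm probe set differed by −0.43 in study 1, while 4 other Ighm probe sets with a mean above 10 differed by 0.68 to 0.74 there and by 1.14 to 1.35 over both studies. Another of that brightness differed by −0.85 in study 1 and 0.16 over both. Ighg3 was at 5.85, 11.40 and 5.82 at day 33 and 7.68, 13.25 and 8.79 at day 46, and at 4.63 to 5.63 in all specimens of study 2. The high value at day 33 was that of specimen 14 and that of day 46 of the second specimen, and the difference of 1.23 had an interval of −0.86 to 3.33. The 2 arrays behind the average of 7.68 gave 6.02 and 9.35, and those behind 8.79 gave 6.78 and 10.79.

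Some variable genes of the kappa light chain had larger mean differences. Igkv6-20 was at 4.06, 3.83 and 4.37 at day 33 and 6.27, 4.36 and 6.09 at day 46. Study 2 gave 4.05, 5.24 and 3.97 at day 33 and 7.38, 4.81 and 5.65 at day 49. The highest 2 specimens of each later day lay above every day 33 specimen of their study, and the third overlapped. The difference was 1.51 (95% interval 0.63 to 2.38, limma adjusted p = 0.999), and in whole granuloma of study 2 it was 1.44. All day 33 values of Igkv6-20 lay below the array median, so it was tested only through specimens of the later days. Arrays of 1 specimen lay far apart, at 4.99 and 7.55 in the first specimen of day 46, at 4.58 and 7.61 in the third and at 8.64 and 6.12 in specimen 1 of day 49. Igkv6-14 differed by 1.40 (−0.18 to 2.99) and Igk, the light chain locus, by −0.69 (−2.04 to 0.67). Of 13 tested light chain genes, 10 were above 0. Probe sets of these families can share sequence, so which family member was measured is uncertain.

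Secretory and protein folding genes lay above day 33 in study 1 and near 0 in study 2. Of 30 genes for secretion and the unfolded protein response, 26 had a difference above 0 and 0 had an unadjusted p under 0.05 in limma. The median was 0.17 over both studies, 0.45 in study 1 and −0.02 in study 2, against 0.04, 0.13 and −0.02 over all genes. Dnajb9, a chaperone of the endoplasmic reticulum, was at 9.12, 8.85 and 9.54 at day 33 and 9.70, 10.03 and 9.62 at day 46 (difference over both studies 0.42, SE 0.20). The lectin chaperone Canx differed by 0.27, and its other probe sets by 0.26 and −0.19. Specimen 14 was the lowest of study 1 for the mean level of this list, at 9.43 against 9.82 to 10.47, and without it the medians were 0.23 in study 1 and 0.04 over both studies. Without the 2 day 46 specimens with low Xist the median over both studies was 0.01.

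Proteasome subunits degrade misfolded proteins. Of 30, Psme1, a subunit of the interferon-induced activator, and the core subunit Psmb2 had an unadjusted p under 0.05, both higher, a share of 2 in 30 against 2.17% of all genes. Psme1 was at 8.51, 8.31 and 8.51 at day 33 and 8.90, 8.97 and 9.29 at day 46, and differed by 0.45 over both studies (0.15 to 0.76). Psmb2 differed by 0.43 (0.10 to 0.76). The median of all 30 was 0.02.

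Myc, the growth-promoting transcription factor, was at 10.85, 9.42 and 10.08 at day 33 and 10.53, 11.03 and 10.70 at day 46. In study 2 it was at 10.26, 10.59 and 10.91 at day 33 and 10.56, 9.97 and 10.56 at day 49. The days overlapped in both studies, and the difference was 0.63 in study 1, −0.22 in study 2 and 0.21 over both (95% interval −0.32 to 0.73). The probe set does not tell the transgene from the native gene. Of 27 Myc targets and ribosome biogenesis genes the median was 0.29 in study 1 and −0.09 in study 2. Wdr12, a ribosome assembly factor, differed by 0.89 in study 1 and −0.08 in study 2. Its other, dimmer probe set differed by −0.11 and −0.31. Without specimen 14, whose mean for these genes (8.21) was the lowest of the 12, the median in study 1 was 0.07, against 0.10 over all genes, and that over both studies −0.05 in place of 0.11. Without specimen 2 of day 49 the median of study 2 was 0.05.

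Mki67, the marker of cycling cells, was at 11.29, 9.76 and 11.11 at day 33 and 10.99, 11.68 and 11.36 at day 46. In study 2 it was at 10.51, 10.61 and 11.17 at day 33 and 10.69, 10.76 and 10.99 at day 49. Of 30 tested cell cycle genes the median difference was 0.49 in study 1 and −0.21 in study 2, and 0 had an unadjusted p under 0.05 over both studies in limma. The mean level of specimen 14 was 6.80, and that of the other specimens of study 1 was 7.91 to 8.18. Without specimen 14 the median was 0.06 in study 1, against 0.10 over all genes, and −0.10 over both studies, against 0.13 with it. Without the 2 specimens with low Xist it was −0.03 over both studies.

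Regulators of the step into the cell cycle included Cdkn2a, which encodes inhibitors of that step. It was at 4.91, 4.99 and 4.66 at day 33 and 4.86, 5.95 and 6.02 at day 46, and at 4.94 to 5.24 and 5.19 to 5.87 in study 2 (difference 0.57, 95% interval 0.14 to 1.01). All day 33 values of Cdkn2a lay below the array median. It was tested only through specimens of the later days, so the interval is no support for a rise. The D cyclin Ccnd1 was higher with no overlap in study 1 (5.33, 5.58 and 5.76 against 6.30, 6.67 and 7.21) and differed by 0.01 in study 2. Its other probe sets differed by 0.17 and 0.09 over both studies. The death agonists Bid (0.36) and Bcl2l11 (0.26) and the p53 target Zmat3 (0.35) had intervals that include 0.

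B cell genes had a higher median in study 2 than in study 1, a difference that was not tested. Of 9 tested, 8 were above 0, with a median of 0.29 over both studies, 0.11 in study 1 and 0.72 in study 2, and a median of 0.69 in whole granuloma of study 2. Fcrla, an intracellular Fc receptor-like protein of B cells, was at 6.42, 7.70 and 7.30 at day 33 and 7.50, 8.72 and 7.57 at day 49. Its difference over both studies was 0.61 (95% interval 0.05 to 1.17). Cd79a, the signalling chain of the B cell receptor, was at 8.12 in specimen 2 of day 49 and at 6.21 or lower in the other 11 specimens. The same specimen was highest for the mean level of the class II antigen presentation genes (8.62, against 6.77 to 7.90), and Cd74, their invariant chain, was highest there too (10.03). Without it the B cell median was 0.40 in study 2 and 0.10 over both studies, and in study 2 the class II median was −0.37, against 0.16 with it. The part of this specimen's B cell content in the difference was not tested.

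Cytokine signals of the niche did not pass either. Il6, the growth factor of plasma cell tumors, was at 3.81 to 4.98 at day 33 and 4.63 to 5.25 at day 46, and at 5.99 to 7.54 and 5.99 to 7.60 in study 2 (difference 0.34, 95% interval −0.32 to 1.01). In study 1 all day 33 values of Il6 lay below the array median, so the difference there is a weak measure of change. Its receptor Il6ra differed by −0.05 (−0.61 to 0.52). Of 17 genes of interleukin-6 and STAT3 signalling, 2 had an unadjusted p under 0.05, both higher, against 2.17% of all genes: the AP-1 subunit Junb (0.49, 0.06 to 0.92) and the STAT3 inhibitor Pias3 (0.38, 0.01 to 0.75). The other, dimmer Pias3 probe set differed by 0.01. Cxcl12, which retains plasma cells in their niche, was higher with no overlap in study 2, at 9.41, 9.45 and 8.60 against 10.18, 9.84 and 9.55, and overlapped in study 1 (0.48, −0.02 to 0.99). Tnfrsf13b, a further receptor of BAFF and APRIL, differed by 0.28 and its adaptor Traf6 by −0.11. The NF-kB regulator Nfkbiz differed by 0.48 (0.08 to 0.88), and its other probe set by −0.17.

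The neutrophil attractant Cxcl1 differed by 0.87 (95% interval 0.05 to 1.69), with specimen 14 (7.78) inside the range of day 46 (7.08 to 8.18). Ccl7, a monocyte attractant, differed by 0.33 (−0.03 to 0.70), with a mean of 4.38, below the array median of each specimen. Interferon response genes had a median of −0.34 in study 1, 0.17 in study 2 and −0.11 over both, which was 0.18 without specimen 14. Ifi35 differed by −0.34 and the transcription factor Irf1 by 0.31. Of 15 immediate early genes, which respond within minutes to handling, 13 were above 0 with a median of 0.07 (8 after quantile normalization, and a median of 0.29 without specimen 14), and Fos differed by 0.34. Over both studies, metabolic and RNA processing lists stayed close to the median of all genes, apart from 18 splicing factors with a median of 0.25 (0.12 without specimen 14). Among these Srsf2 (0.47, 0.06 to 0.89) and Hnrnpc (0.32, 0.02 to 0.61) had the smallest p. Ldha and Pkm, late enzymes of glycolysis, differed by 0.23 and 0.30. The respiratory subunits Ndufa4 and Cox6c differed by 0.29 and −0.26. The ribosomal proteins Rpl12 and Rps19 differed by 0.36 and 0.20, and the mitochondrial Mrpl50 and Mrpl23 by 0.39 and 0.37. Of 44 cytosolic ribosomal proteins, 29 were above 0, with a median of 0.03. Of 74 mitochondrial ones, 34 were above 0 and 40 below, with a median of −0.02 (0.21 in study 1 and −0.15 in study 2).

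**Figure D4:**
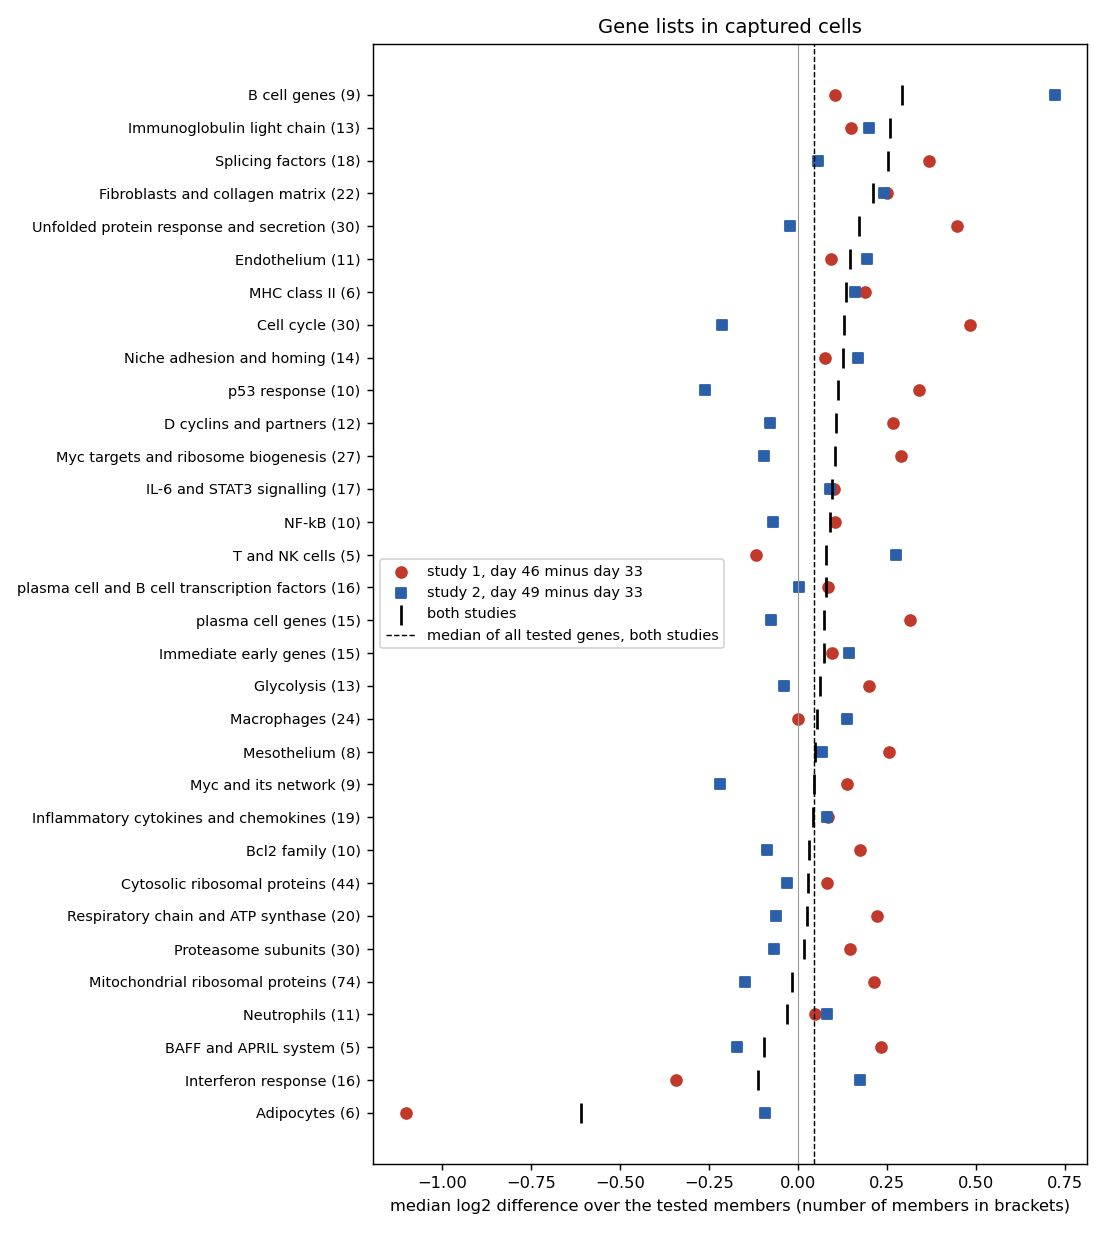
Median log2 difference (horizontal axis) over the tested members of each gene list with at least 5 of them (vertical axis, number of members in brackets) in study 1 (red circles), study 2 (blue squares) and both (black bars). The dashed line is the median of all tested genes, 0.04. Cell cycle genes lie at 0.49 in study 1 and −0.21 in study 2, and adipocyte genes at −1.10 and −0.09.

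Fibroblast and matrix genes lay mostly above day 33, but the main collagen genes differed little. Among the defining fibroblast markers, Col1a1 differed by 0.05, Col1a2 by 0.04 and Col3a1 by 0.03, near the median of 0.04 over all genes. Dcn differed by 0.18 and Lum by 0.33. Of 22 fibroblast and matrix genes, 21 had a difference above 0, against 4720 of all 7739 genes, and 11 were above 0 in each study, with a median of 0.21. With the 3-prime minus 5-prime difference as a covariate, 15 were above 0 and the median was 0.19. Of the 22, 2 had an unadjusted p under 0.05, both higher, against 2.17% of all genes. The fibroblast activation protein Fap was at 5.33, 5.30 and 5.02 at day 33 and 5.85, 5.94 and 5.54 at day 46, and at 5.80, 5.15 and 5.10 and 5.97, 6.02 and 5.53 in study 2 (difference 0.53, 95% interval 0.18 to 0.87). The days did not overlap in study 1 and overlapped in study 2. The matrix proteoglycan Bgn differed by 0.66 (0.17 to 1.16). The mean level of the 22 genes overlapped between days in each study: 8.79 to 9.04 and 8.80 to 9.45 in study 1, 8.66 to 9.28 and 8.51 to 9.63 in study 2. Without specimen 2 of day 49 the median was 0.11, and without the 2 specimens with low Xist that of study 1 was −0.06 in place of 0.25. In whole granuloma of study 2 the median was −0.17.

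Among other cell types, the endothelial diaphragm protein Plvap differed by 0.74 (95% interval 0.05 to 1.42) and the mesothelial Upk3b by 0.81 (0.06 to 1.56). Each was the highest of its list and its 1 member with an unadjusted p under 0.05 in limma, against 2.6% of all genes. The 11 tested endothelial genes had a median of 0.15 and ran from −0.81 to 0.74. The 8 mesothelial genes had a median of 0.05, against 0.04 over all genes. Of 11 tested neutrophil genes, 5 were above 0 and 6 below, with a median of −0.03, and 2 had an unadjusted p under 0.05, both higher, against 2.17% of all genes. The first of them, Lcn2, was higher with no overlap in study 1 and overlapped in study 2 (0.95, 0.10 to 1.79). The other, the granule gene Ngp (1.48, 0.06 to 2.90) was at 8.82 in the second specimen of day 46 and at 7.38 and 8.19 in specimens 1 and 2 of day 49, and at 6.01 or lower in the other 9. The iron uptake receptor Tfrc differed by 0.39 (0.07 to 0.72). Adipocyte genes lay lower in study 1, with a median of −1.10 and all 6 tested below 0, and at −0.09 in study 2, with 3 of 6 above 0. Of the 6, 5 had a difference below 0, with a median of −0.61 over both studies, −1.06 without specimen 2 of day 49, and −1.38 in whole granuloma of study 2.

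Adipoq, the fat hormone adiponectin, was at 7.03, 4.54 and 4.73 at day 33 and 3.52, 3.29 and 3.80 at day 46. Study 2 gave 4.87, 5.76 and 3.38 at day 33 and 3.49, 6.02 and 3.11 at day 49. It was lower with no overlap in study 1, overlapped in study 2, and differed by −1.18 (95% interval −2.38 to 0.03). Only 3 specimens, at 7.03, 5.76 and 6.02, were above the array median. Apart from 7.03, the separation in study 1 is thus between dim values. Retn, resistin, differed by −0.55 (−1.02 to −0.09) and Car3, an abundant carbonic anhydrase of fat, by −1.29 (−3.68 to 1.10). Cidec was above the array median in no specimen and Plin1 was not named on the array. Mast cell, dendritic cell, T cell, smooth muscle, acinar and epithelial lists had 5 or fewer tested members each.

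Malat1, a nuclear noncoding RNA, was at 13.05, 12.99 and 11.61 at day 33 and 11.70, 11.34 and 9.58 at day 46. Study 2 gave 9.76, 10.63 and 10.45 at day 33 and 9.73, 10.26 and 10.80 at day 49. The days overlapped in both studies, and the difference was −0.85 (95% interval −1.73 to 0.04). It was −0.29 without the 2 specimens with low Xist, and within the 1 title number that held both days it was 0.06 (12.46 and 12.52, 1 array each). Another probe set of Malat1, with a mean of 10.44, differed by −0.42 in study 1 and −0.44 in study 2. A further one, with a mean of 8.76, differed by −1.53 and −0.35. The dimmer ones, with means of 6.01 and 4.36, differed by −0.24 and 0.25 over both studies.

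Other genes with a mean difference of 2-fold or more were the bone-resorbing protease Ctsk (1.08, 95% interval 0.19 to 1.97), the protocadherin Pcdhb9 (1.06, 0.34 to 1.79) and Xist (−2.34). These genes and Car3 were named after their values were seen, because the differences were large, so their intervals are no independent support. Ctsk was at 9.96 in specimen 1 of day 49 and at 8.18 or lower in the other 11. Pcdhb9 was at 4.56, 6.53 and 4.18 at day 33 and 6.53, 6.83 and 6.61 at day 49, and without specimen 2 of day 33 it was the 1 gene of study 2 with a limma adjusted p under 0.05.

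Neither study on its own had a gene with an adjusted p under 0.05 (0 genes, 0%, in limma). In study 1, 826 genes had an unadjusted p under 0.05 (10.7%) and in study 2, 96 (1.24%). In study 1, 662 of them (8.55%) were higher and 164 (2.12%) lower, and in study 2, 39 (0.504%) were higher and 57 (0.737%) lower. Single specimens moved these numbers: study 1 had 437 without the second specimen of day 46 and 534 without the third. For study 2 there were 54 without specimen 2 of day 49, 152 without specimen 2 of day 33, 227 without specimen 1 of day 49 and 240 (171 higher and 69 lower) without its specimen 3. After quantile normalization the split of study 1 was 370 higher and 324 lower, and its median difference was 0.02 in place of 0.13. The difference between the changes of the studies was tested by an interaction, and 0 genes (0%) passed (limma, smallest adjusted p 0.657). At an unadjusted p under 0.05 there were 551 (7.12%), 118 with a higher difference in study 2 (1.52%) and 433 with a lower one (5.6%). After quantile normalization the split was 221 and 224. The days separated in opposite directions in the studies for 36 genes (0.465%).

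Reln, a secreted matrix glycoprotein, had the smallest interaction p. It was at 10.06, 8.84 and 10.10 at day 33 and 10.23, 10.57 and 10.32 at day 46, and in study 2 at 10.07, 10.62 and 10.20 at day 33 and 8.63, 8.55 and 8.82 at day 49. Day 46 was higher and day 49 lower, with no overlap in either study, and the changes were 0.71 and −1.63. They differed by −2.33 (SE 0.42, limma adjusted p = 0.657). In whole granuloma of study 2 Reln differed by −1.40. Rabif, a chaperone of Rab proteins, differed by 1.11 in study 1 and −0.68 in study 2, and the endocytic protein Necap1 by 0.91 and −0.49. Neither difference between studies passed.

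**Figure D5:**
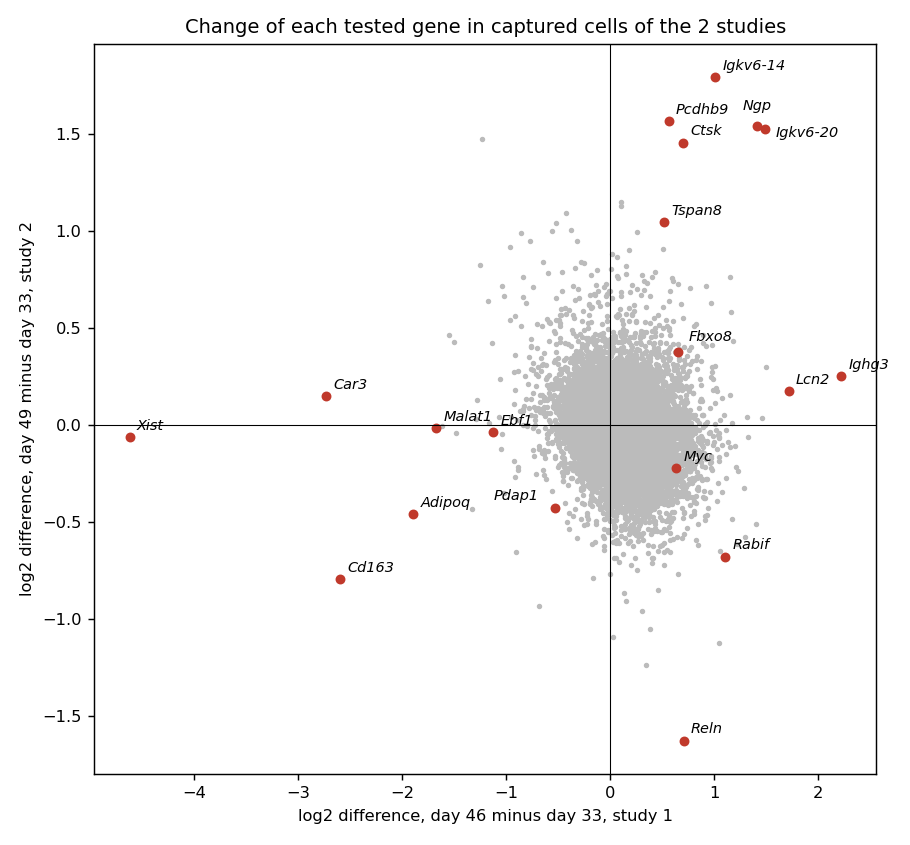
Log2 difference of each of the 7739 tested genes (grey points, named genes in red) in study 1 (horizontal axis, day 46 minus day 33) and study 2 (vertical axis, day 49 minus day 33). Cd163 (−2.60 and −0.80) lies low in both, while Xist and the chosen probe set of Malat1 lie low in study 1 and near 0 in study 2. Ebf1 in study 2 is below the array median in all specimens.

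Whole granuloma of the same days existed in study 2, which allowed the day change of captured cells to be set against that of undissected tissue. Of 7849 genes tested, 0 (0%) differed in change at an adjusted p of 0.05 (limma, smallest adjusted p 0.36). At an unadjusted p under 0.05 there were 1027 (13.1%), of which 133 (1.69%) were higher and 894 (11.4%) lower. After quantile normalization that split was 365 and 578. The count depended on specimen 3 of day 49: without it 1413 genes passed, 478 higher and 935 lower. Leaving out its whole granuloma alone also gave 1413 (430 higher and 983 lower), and leaving out its captured cells alone gave 0.

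The lysosomal sialidase Neu1 had the smallest p of this comparison. Its change was −0.85 in captured cells and 1.40 in whole granuloma, from 6.69 ± 0.34 to 8.09 ± 0.51 (SD, n = 3), a difference between changes of −2.25 (SE 0.43, limma adjusted p = 0.36). The corepressor Sin3b differed by −0.12 and 1.32, and the lipase Abhd6 by −0.39 and 1.61. Malat1 differed by −0.01 in captured cells and 2.03 in whole granuloma, and Pdap1 by −0.43 and 1.19. All of these had the same limma adjusted p of 0.36.

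The step from day 33 to day 46 or 49 held fewer called genes than the steps beside it. In 1 limma fit of all captured groups, 1 of 7739 genes was past an adjusted p of 0.05 for day 17 minus day 7, 87 for day 33 minus day 17 and 683 for day 104 or 105 minus day 46 or 49. The step described here had 1, Cd163. The steps share samples and the number of specimens differs between days, with 1 at day 104, so the counts are given side by side without a test of their difference.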

How the data were processed

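Captured cells from granulomata were measured on mouse oligonucleotide arrays. All 82 arrays, of 22690 probe sets each, come as log2 values that the authors deposited. The submitters' processing notes name RMA and Partek, without versions. There were 0 columns that no sample claims. Values were used as deposited. Arrays with a 99th percentile under 10 were left out (1 array, 8.70). Of the probe sets, 20380 had 1 gene symbol, 691 several, 1555 none and 64 were controls. Symbols came from the platform annotation, 20351 of them updated by gene identifier. For each of 12393 genes the brightest probe set, judged by its mean across the series, was taken. A gene was tested when above the array median in at least 3 specimen averages (7739 genes). List members that passed this filter are called tested.

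Arrays of 1 specimen number were averaged. A day 33 array of study 1 carries no specimen number and was kept as a specimen of its own. limma 3.58.1 in R 4.3.3 (lmFit, eBayes) fitted study and day over both studies (9 residual degrees of freedom), and a mean per group for each study and for the interaction (8). Captured cells and whole granuloma were compared with the specimen as a random block (correlation 0.075). Benjamini-Hochberg adjustment ran over all tested genes. The fits were tested on simulated data. The number of arrays limits the precision, and the array signal has no count of molecules behind it.

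Genes were named by rule: the 5 with the smallest p in each direction and the same sign in both studies, the 2 smallest p of each list, a set chosen for plasma cell biology, and the 3 smallest p of each interaction. Others, apart from the defining markers of cell types, were named after their values were seen. The members and gene lists were chosen with earlier results of these data known. In study 2, deviations from the group mean correlated between specimens of the same number at 0.282, 0.351 and 0.347, so the numbers were treated as pairing in 1 alternative; the labels do not say what they mark. Alternatives were scaling, filters, probe set choice, all captured groups in 1 fit, array weights, specimen letters, an RNA quality covariate, leaving out specimens, and, chosen after seeing the data, leaving out the specimens with low Xist, 1 array of specimen 14 and single tissue averages, and reading the other day steps from the fit of all captured groups.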

Additional observations from a re-analysis of the deposited data

Results flagged for a closer look

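In 4 cases a value of a single array stood farther from the nearest array of their group than Dixon's ratio allows. Chance flags about 1 in 20 groups, and 12 combinations of group and value were tested. The compressed array of specimen 2 of day 49 of study 2 had a 99th percentile of 8.70, with 12.45 the nearest of the other 5. Its array median was 5.64, with 5.40 the nearest. Its control probe sets near the 3-prime end exceeded those near the 5-prime end by 0.46 log2 units, with 3.78 the nearest. It was left out of every average unless stated. The second array of specimen 14 of day 33 of study 1 had a median of 5.11, with 5.07 the nearest of the other 4. That array was kept.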

How the results depend on the processing

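Over both studies the count of genes past an adjusted p of 0.05 in limma was 0 in every alternative except the fit of all captured groups, where it was 1, Cd163. It was 0 to 0 when each specimen was left out in turn. In study 1 the count was 1, again Cd163, after quantile normalization, after median centring, with genes above the array median in at least 6 specimens and with all captured groups in the fit. Leaving out each specimen gave 0 to 1 in study 1 (Tsks without specimen 5, Xist without the first specimen of day 46), 0 to 1 in study 2 (Pcdhb9 without specimen 2 of day 33) and 0 to 1 for the difference between studies (Xist without the first specimen of day 46). For captured cells against whole granuloma the range was 0 to 1413, with 1413 without specimen 3 of day 49 or without its whole granuloma alone. The causes were not tested. With the replicate block in study 2 the count was 0, with 269 genes at an unadjusted p under 0.05 in place of 96, so the paired fit changed no call. Without the 2 specimens with low Xist it was 0, with 67 genes at an unadjusted p under 0.05 in place of 201 (also 534 with array weights, 65 with the compressed array kept and 347 without the filter on dim genes); the lone remaining specimen of day 46 is then assumed to vary like the other groups. Quantile normalization moved the median difference of all genes from 0.13 to 0.02 in study 1. Of the 105 genes named by rule, 69 kept their sign in all settings run (genes named after their values were seen were not run), and 88 of 2600 gene and setting pairs changed sign. At 3 specimens a group, the 95% interval lay within 1.5-fold for 65.2% of genes, so smaller differences could not be bounded for the rest.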
